A study of Mus musculus with 6 samples.

Results

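CD8 T cells and natural killer (NK) cells, the 2 cytotoxic lymphocyte classes of mouse glioma, were compared with each other within the 4 tumour libraries of a single-cell RNA-seq series. The cells were selected on measured values, the raw UMI counts of marker genes in each barcode (a UMI marks 1 captured RNA molecule). A CD8 T cell had at least 3 UMIs of Cd3d, Cd3e, Cd3g and Trac together, at least 1 of Cd8a and Cd8b1, and 0 of the NK receptor genes Ncr1, Klre1 and Klrb1c. An NK cell had at least 2 UMIs of those NK receptor genes, at most 1 of the T cell genes and 0 of Cd8a and Cd8b1. Both were allowed at most 2 UMIs over 11 genes of microglia and border macrophages. This rule found 169 CD8 T cells and 137 NK cells among 7328 filtered tumour barcodes, of 17362 barcodes deposited for the whole series (171 and 137 over every deposited barcode). The 20 genes of the gates were left out of every test, because the rule itself sets them.

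The cells were sorted as CD45+ immune cells and captured with 10x Genomics 3' v3 reagents. The control tumours (2 libraries) had lost Trp53 and kept wild-type Rbpj, while the Rbpj-/- tumours (2 libraries, called Rbpj-deleted here) had lost both genes, so Trp53 loss is shared by all 4 libraries. Rbpj encodes the factor through which Notch receptors act on DNA. Early gliomas were located through a fluorescent Cre reporter allele (Rosa-CAG::GFP) and cut out, and per the labels it is the tumour, not the immune cells sequenced here, that carries the deletions. The Cre driver, strain, sex and age are not given in the sources used here. The series design gives pools of 15 control tumours and 9 Rbpj-/- tumours (and 9 healthy brains, from which 2 more libraries with wild-type Trp53 and Rbpj were made), whereas the extraction protocol describes 1 mouse per well. The p-values below therefore rest on the spread over 4 libraries and not on known numbers of mice.

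CD8 T cells and NK cells kill by the same machinery, releasing perforin and granzymes from secretory granules, but they find targets differently. A CD8 T cell uses a clonal T cell receptor that reads peptides on MHC class I, and after long stimulation in tumours it typically carries checkpoint receptors such as PD-1, LAG-3 and TIM-3. An NK cell has no clonal receptor; it weighs germline-encoded activating and inhibitory receptors, many of them lectin-like proteins of the Klr families, and passes activating signals through adaptors such as DAP12 and the Fc receptor gamma chain.

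Control libraries 1 and 2 held 85 and 29 CD8 T cells and 48 and 8 NK cells. Rbpj-deleted libraries 1 and 2 held 14 and 41 CD8 T cells and 33 and 48 NK cells. In the control libraries 63.9% (exact binomial 95% interval 55.1 to 72.1) and 78.4% (61.8 to 90.2) of the gated cells were CD8 T cells. In the Rbpj-deleted libraries the shares were 29.8% (17.3 to 44.9) and 46.1% (35.4 to 57.0). The shares of the groups did not overlap, but they describe a gate and a sort, the intervals cover counting error only, and no test was made. Median UMIs per cell were 9374, 8835, 4680 and 4096 in CD8 T cells and 4886, 6837, 3714 and 2875 in NK cells, in the order control 1, control 2, Rbpj-deleted 1 and Rbpj-deleted 2, which is kept throughout. CD8 T cells were deeper in all 4 libraries, and both classes were shallower in the Rbpj-deleted libraries. The summed counts ranged from 95004 to 1097419 UMIs for CD8 T cells and from 59530 to 274256 for NK cells.

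**Figure D1:**
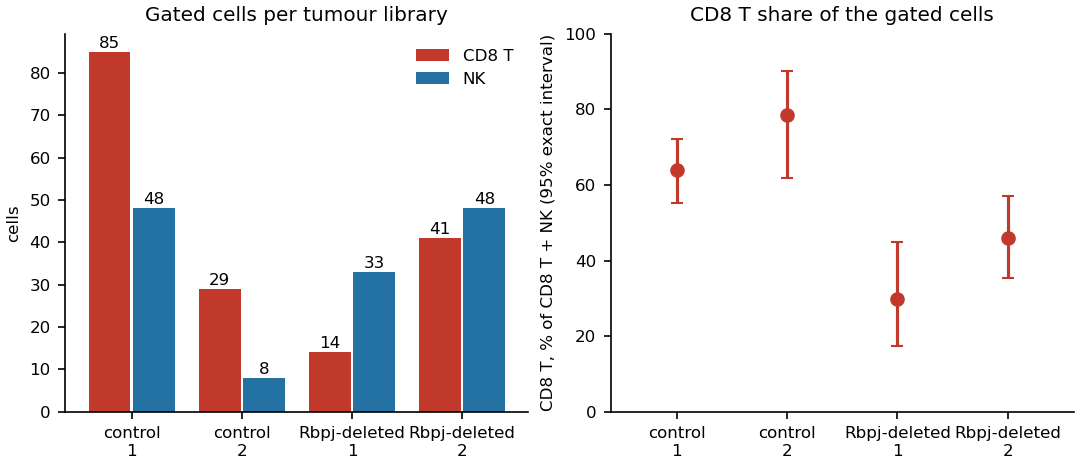
Left, number of gated CD8 T and NK cells (bars) in each of the 4 tumour libraries. Right, CD8 T cells as a percentage of both classes with exact 95% binomial intervals; the 2 control libraries (63.9% and 78.4%) lie above the 2 Rbpj-deleted ones (29.8% and 46.1%).

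The edges of the gate were thinly filled on the T cell side and broader elsewhere. Only 1 CD8 T cell sat at 3 T cell UMIs, with 2 barcodes just outside at 2 UMIs, whereas 11 NK cells sat at 2 NK receptor UMIs and 15 barcodes lay just outside at 1. A further 41 barcodes met the CD8 T gate but for 1 NK receptor UMI and 96 but for 2 or more. Those 137 barcodes were left out. Barcodes with more than 2 myeloid UMIs numbered 444 on the CD8 T side (median 32431 UMIs) and 132 on the NK side.

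RNA of other cells was present in both classes. In a list of 14 microglia and macrophage genes the sum ran from 882 to 1828 CPM (counts scaled to the same total per sum) over the 4 CD8 T sums and from 853 to 5111 over the 4 NK sums, with P2ry12 at 0 in all 8. The sum of 10 dendritic cell genes ran from 246 to 2672 CPM in CD8 T cells and from 168 to 12246 in NK cells, highest in the NK cells of Rbpj-deleted library 1. The sum of 7 monocyte genes ran from 1123 to 2101 and from 565 to 7605 CPM, highest in the same NK cells. Most of it in CD8 T cells came from Ly6c2 (500, 960, 653 and 599 CPM, TMM-scaled) and Plac8 (180, 514, 612 and 703). Ly6c2 is also in the list of memory and naive T cell genes, so the CD8 T sums do not measure monocyte RNA alone. Removal of 21 CD8 T and 16 NK barcodes with more than 5000 CPM of RNA of other cells was chosen after seeing the data. It left highest dendritic sums of 383 and 748 CPM and highest monocyte sums of 1396 and 1072. The highest microglia and macrophage sums were then 1363 CPM in CD8 T cells and 2289 in NK cells, both in Rbpj-deleted library 1. Neutrophil genes summed to at most 3.65 CPM in any class and library. RNA of CD4 and gamma-delta T cells summed to 59.2 to 305 CPM in CD8 T cells, where Cd4 itself had 18.00 UMIs in all, and to 29.2 to 51.6 CPM in NK cells. In 2332 microglial barcodes of the same libraries, used below as a background, most lymphocyte genes were near 0.

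Of 3471 genes tested with edgeR on the 8 sums, with the library as a block, 396 (11.4%) differed between the classes at an adjusted p under 0.05. CD8 T cells were higher for 176 genes (5.07%) and NK cells for 220 (6.34%), and 482 genes (13.9%) did not overlap between the 4 CD8 T and 4 NK sums. Of the 396 genes called, 369 moved the same way in all 4 libraries. The median over all tested genes was log2 0.02 (CD8 T minus NK). The number of calls was 240 without the library block and 199 without Rbpj-deleted library 2. Without control library 1 it was 98 of 2903 genes tested, 38 higher in CD8 T cells and 60 in NK cells. Without the mixed barcodes it was 481, with 202 higher in CD8 T cells and 279 in NK cells.

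**Figure D2:**
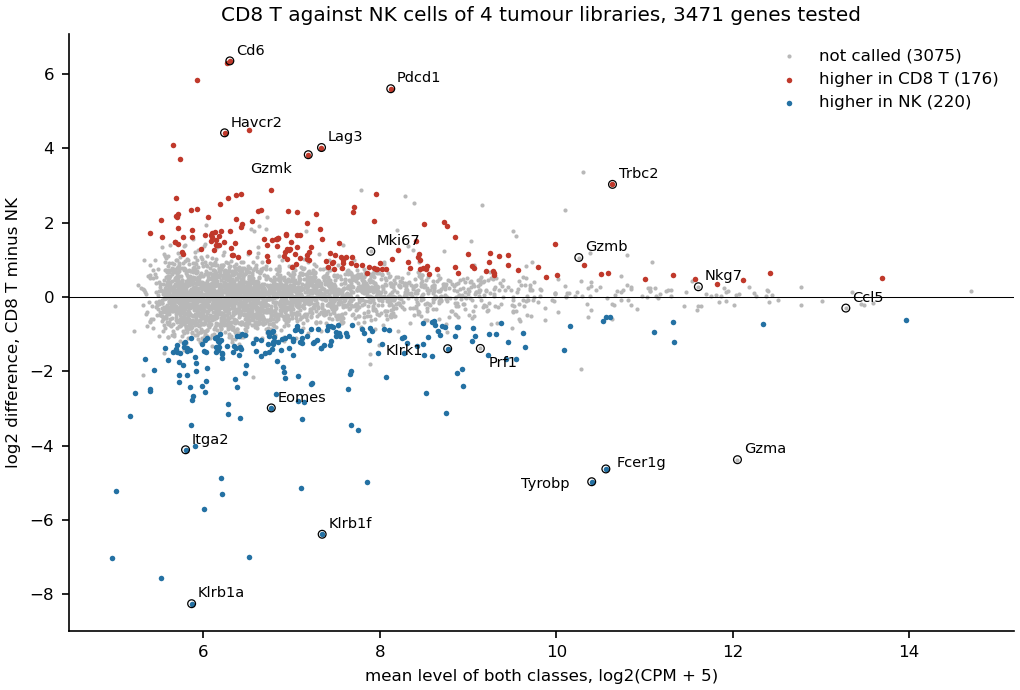
Each point is 1 of 3471 tested genes, by its mean level in both classes (log2 of CPM plus 5) and its log2 difference, CD8 T minus NK. The 176 red genes were higher in CD8 T cells and the 220 blue genes in NK cells; Nkg7 and Ccl5 lie near 0 at a high level, and Gzma lies far below 0 but was not called.

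The genes of the T cell receptor complex and its signalling separated first. Of 15 tested, 8 were higher in CD8 T cells and 0 in NK cells (5.07% and 6.34% over all genes tested). The median log2 difference was 1.12 beside 0.02 over all genes. The list belongs to the lineage the gate selects, so its direction follows in part from the rule. Trbc2 (ENSMUSG00000076498, chr6:41546730-41548352, a constant segment of the T cell receptor beta chain) stood at 3216, 3483, 2319 and 2313 CPM in CD8 T cells and 336, 378, 321 and 329.7 in NK cells. The classes did not overlap, yet NK cells carried an even level of it in every library (log2 3.03 ± 0.15 SE, edgeR adjusted p = 3.3e-07). Of its 31-base stretches 48.5% also occur in other genes, so its count is uncertain. Its neighbour Trbc1 differed by log2 0.93 ± 0.56 (adjusted p = 0.4) and was not called, except without control library 1 and with thinned cells.

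Cd5 and Cd6, paired scavenger-receptor proteins that tune T cell receptor signals, were nearly absent from NK cells. They are neighbours on chromosome 19 (ENSMUSG00000024669, chr19:10717116-10739002, and ENSMUSG00000024670, chr19:10789341-10830058; GRCm38). Cd5 was read at 122, 113, 141 and 196 CPM in CD8 T cells and 3.61, 0, 0 and 0 in NK cells, 242 UMIs against 1. Cd6 was read at 119.7, 106, 120.5 and 238 CPM and 0, 0, 0 and 5.59 CPM, 249 UMIs against 1. No NK library reached the lowest CD8 T library for either gene. Pooled over libraries the ratio was 92.99 (95% interval 16.5 to 3688) for Cd5 and 95.7 (95% interval 17.02 to 3794) for Cd6, with edgeR adjusted p = 4.3e-05 and 4.2e-05. The intervals of pooled ratios, here and below, cover counting error of the UMIs only and not the spread over cells or libraries. The 250 bases before the RefSeq start of Cd5 are shown because the gene gave one of the clearest separations of the classes. Capitals mark matches on either strand to AGGAAG, the core of an ETS factor site, found at 2 places here and in 29.5% of 32851 promoter windows of that length. TGTGGT (RUNX), CTTTGA (TCF/LEF) and GGTGTG (T-box) were not in this window.
Cd5 chr19:10738975-10739224(-), GRCm38.p6: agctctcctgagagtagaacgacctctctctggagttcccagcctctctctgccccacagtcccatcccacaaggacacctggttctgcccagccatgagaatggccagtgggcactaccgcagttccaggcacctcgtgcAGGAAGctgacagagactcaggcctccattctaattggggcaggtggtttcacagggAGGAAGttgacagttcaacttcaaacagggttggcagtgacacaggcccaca

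Downstream of the receptor, Lat, the adaptor on which T cell receptor signals assemble, stood at 303, 408, 301 and 684 CPM in CD8 T cells against 61.3, 86.02, 33.8 and 67.1 in NK cells, without overlap (log2 2.77 ± 0.26, edgeR adjusted p = 4.3e-05). Thy1 (log2 1.91 ± 0.29) and the costimulatory receptors Icos (1.34 ± 0.29) and Cd28 (1.12 ± 0.24) were also higher in CD8 T cells, with adjusted p from 0.0017 to 0.012. The call of Cd28 was lost without control library 1 and that of Icos without Rbpj-deleted library 2. The proximal kinases used by both classes were not called. Lck read 377 to 663 CPM in CD8 T cells and 327 to 499 in NK cells (log2 0.38 ± 0.21, adjusted p = 0.28), and Zap70 differed by log2 0.74 ± 0.27 (adjusted p = 0.098). Cd2, an adhesion receptor of both classes, differed by log2 -0.01 ± 0.31, with a sign that turned under 4 alternatives.

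Most checkpoint genes that were called were higher in CD8 T cells. Of 12 tested genes of the checkpoint and exhaustion list, 5 were higher in CD8 T cells and 1 in NK cells, with a median of log2 1.21. Over all genes tested the shares were 5.07% and 6.34%. Without control library 1 the counts were 3 and 0. Pdcd1, which encodes PD-1 (ENSMUSG00000026285, chr1:94038305-94052553), stood at 726, 654, 522 and 232 CPM in CD8 T cells and 10.8, 34.4, 0 and 11.2 CPM in NK cells, 1095 UMIs against 7. The lowest CD8 T library was above the highest NK library (log2 5.60 ± 0.43, edgeR adjusted p = 1.2e-05). Lag3, an inhibitory receptor for MHC class II (ENSMUSG00000030124, chr6:124904361-124911705), read 409, 405, 281 and 101 CPM against 14.4, 0, 28.2 and 16.8, and Havcr2, which encodes TIM-3 (ENSMUSG00000020399, chr11:46454935-46481255), read 125, 163, 171 and 85.5 against 3.61, 0, 11.3 and 5.59. Neither gene overlapped between the classes (log2 4.02 ± 0.41 and 4.41 ± 0.46, edgeR adjusted p = 7.1e-05 and 8.1e-05). Microglia themselves carried 188 to 454 CPM of Lag3 and 129 to 187 of Havcr2 but only 7.84 to 15.1 of Pdcd1. Of 7 tested microglial genes 0 were called in either direction by edgeR, with log2 differences from -0.66 to 0.36, and in Rbpj-deleted library 1 the sum of the microglial list was 5111 CPM in NK cells and 1600 in CD8 T cells. The part of microglial RNA in the Lag3 and Havcr2 levels was not tested.

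Tox, a transcription factor of persistently stimulated T cells, averaged 248 ± 123 CPM in CD8 T cells and 62.1 ± 8.24 in NK cells (SD over 4 libraries; log2 1.83 ± 0.33, edgeR adjusted p = 0.0043). Its call was lost without control library 1. Tnfrsf9, the costimulatory receptor 4-1BB, was higher by log2 1.81 ± 0.41 (adjusted p = 0.016), a call lost without either Rbpj-deleted library. Ctla4, the checkpoint that competes with Cd28 for its ligands, read 279, 397, 131 and 101 CPM against 137, 0, 22.5 and 39.1 and missed the threshold (log2 1.78 ± 0.49, adjusted p = 0.055), which it passed without control library 2 and under 6 other alternatives. The early-response nuclear receptor gene Nr4a1 went the other way, higher in NK cells (log2 -1.57 ± 0.29, adjusted p = 0.0059, lost without control library 1), while Nr4a2 and Nr4a3 were not called. Dusp4, a phosphatase that limits MAP kinase signals, was higher in CD8 T cells at 254, 106, 201 and 91.6 CPM against 0, 17.2, 5.63 and 16.8 (log2 4.49 ± 0.62, adjusted p = 0.001).

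At the level of cells the checkpoint genes were read in a fraction of the CD8 T cells. To compare depths, each cell was thinned to 2000 UMIs, which left 166 CD8 T cells (3 too shallow, median 6785 UMIs before thinning), 126 NK cells (11 too shallow, median 4348) and 2332 microglial barcodes (median 9185). A Pdcd1 UMI was found in 54.2% of CD8 T cells and 1.59% of NK cells (71.01% and 3.65% before thinning), against 1.76% of microglia. The NK share, 2 of 126 cells, was close to the microglial share, which was 7.85% before thinning. Whether microglia carry Pdcd1 RNA of their own was not tested. Over the libraries the CD8 T share of Pdcd1 was 60.2%, 75.9%, 46.2% and 29.3%, lowest in Rbpj-deleted library 2. Lag3 was found in 40.96% of CD8 T cells and 1.59% of NK cells (63.3% and 8.03% before thinning) and Havcr2 in 20.5% of CD8 T cells and 0.794% of NK cells (39.6% and 2.92%). By library the CD8 T shares were 44.6%, 62.1%, 53.8% and 14.6% for Lag3 and 20.5%, 41.4%, 7.69% and 9.76% for Havcr2, a wide spread behind the pooled values. Microglia express both of those genes (46.96% and 31.05%), so they give no background for them.

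**Figure D3:**
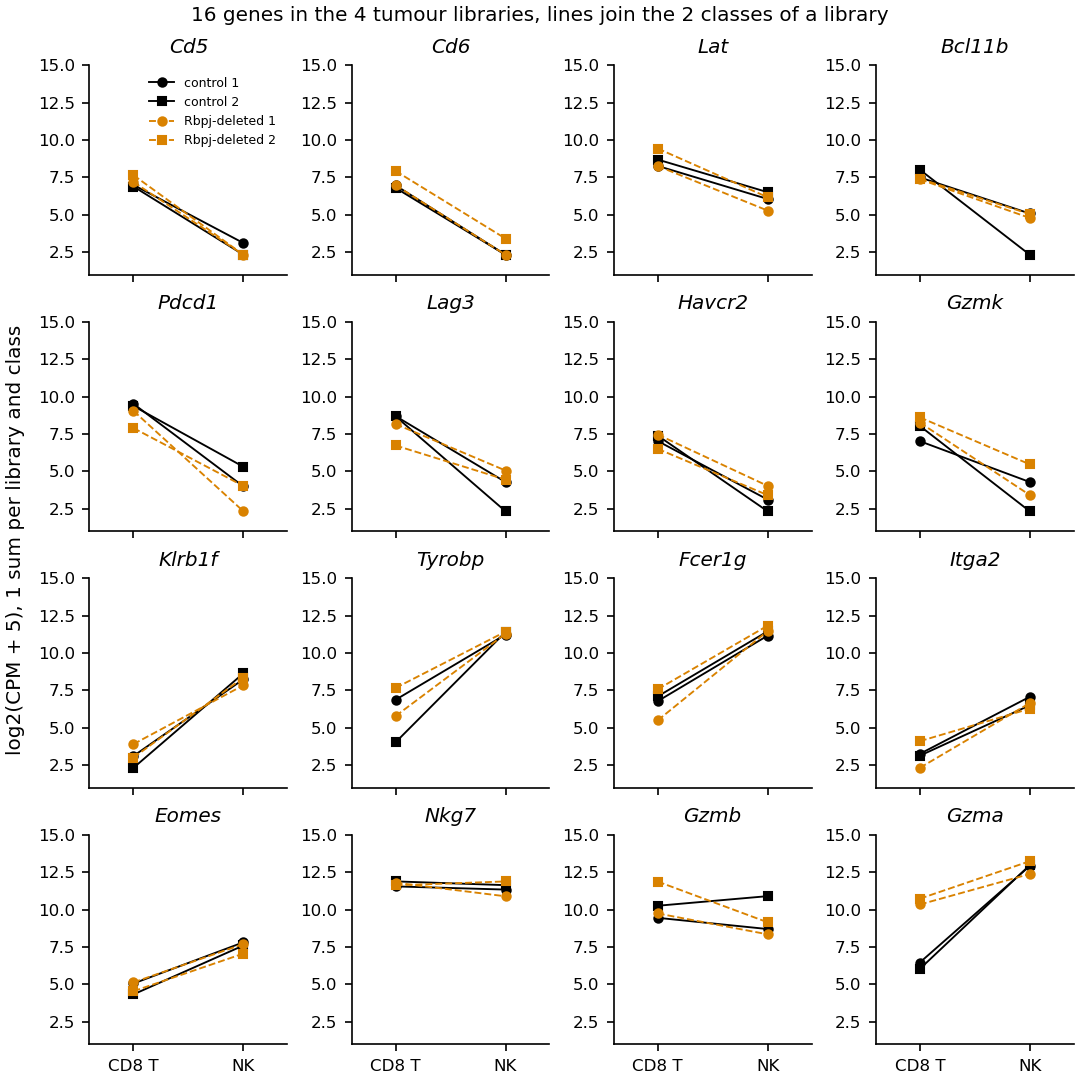
Level of 16 genes as log2 of CPM plus 5, 1 sum per class; a line joins the CD8 T and NK sums of a library (black, control; orange, Rbpj-deleted). T cell and checkpoint genes fall from CD8 T to NK in every library, and Klrb1f, Tyrobp, Fcer1g, Itga2 and Eomes rise. Gzma also rises in every library, and its lowest levels are in the CD8 T cells of the 2 control libraries.

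The NK cells were marked by receptors of the NK gene complex on chromosome 6. The table holds 27 Klr genes of that chromosome, of which 2 are gate genes and 10 were tested. Of the 10, 7 were higher in NK cells and 0 in CD8 T cells (6.34% and 5.07% over all genes tested). The gate selects NK cells on RNA of those 2 genes and Ncr1, so this direction follows in part from the rule. Klrb1f, an activating lectin-like receptor (ENSMUSG00000030154, chr6:129045901-129057464), was read at 3.66, 0, 10.04 and 3.05 CPM in CD8 T cells and 299.5, 396, 225 and 324 CPM in NK cells, 6 UMIs against 204. Every NK library was above every CD8 T library (log2 -6.38 ± 0.41, edgeR adjusted p = 3.5e-06). Its 250 bases before the RefSeq start are shown because no NK library of this receptor gene came near any CD8 T library. Capitals mark 2 matches to GGTGTG (in 16.3% of all windows), 1 to CTTTGA (13.8%) and 1 to AGGAAG, on either strand; TGTGGT (14.05% of windows) was not in it.
Klrb1f chr6:129045651-129045900(+), GRCm38.p6: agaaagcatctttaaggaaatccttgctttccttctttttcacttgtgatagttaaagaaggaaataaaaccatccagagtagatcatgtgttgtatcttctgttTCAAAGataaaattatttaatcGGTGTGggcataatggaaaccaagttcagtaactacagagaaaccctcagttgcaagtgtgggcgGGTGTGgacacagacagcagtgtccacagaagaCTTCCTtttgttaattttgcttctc

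Other NK receptor genes had no UMI in any CD8 T cell. Klrb1a, an activating receptor of the same family (ENSMUSG00000030361, chr6:128609227-128623533), stood at 137, 155, 67.6 and 67.1 CPM in NK cells (71 UMIs) and 0 in all 4 CD8 T libraries, at least 61.6-fold higher when 3 counts over the CD8 T group are taken as the floor (edgeR adjusted p = 0.00016). Sh2d1b1, the adaptor EAT-2 of SLAM-family receptors, was also at 0 in CD8 T cells and at 72.2, 120.4, 90.1 and 44.7 CPM in NK cells, at least 44.2-fold higher (adjusted p = 0.00062). The Ly49 gene Klra9 read 50.5, 68.8, 45.04 and 44.7 CPM against 0, at least 29.5-fold higher, and Klra3 read 267, 533, 467 and 464 CPM against 0, 7.56, 40.2 and 36.7. The Ly49 genes share sequence with one another (57.8% of the 31-base stretches of Klra9 and 43.5% of those of Klra3), so a count may belong to a relative. Klri2, which pairs with Klre1 in a receptor dimer, stood at 152, 172, 107 and 112 CPM in NK cells and 3.66, 7.56, 0 and 0 in CD8 T cells (log2 -5.30 ± 0.46).

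The gate requires 0 UMIs of Klre1, Klrb1c and Ncr1 in a CD8 T cell, and that bears on these genes. It also requires at least 2 such UMIs in an NK cell, a limit that the setting below leaves in place. With the 137 barcodes that carried such RNA added to the CD8 T class (306 cells), Klrb1f still differed by log2 -6.75 and Klri2 by -4.20, while Klrb1a and Sh2d1b1 stayed at 0 in all CD8 T libraries. Klra9 then had RNA in 2 CD8 T libraries, at 1.15 CPM in control 1 and 11.1 in Rbpj-deleted 1 (log2 -4.83), so its lower bound holds only under the gate of 0. Klra3 was no longer called (log2 -4.02, edgeR adjusted p = 0.069). It had also been lost without control library 2 (adjusted p = 0.024 with all libraries).

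RNA of NKG2 receptors was read in both classes. Klrk1, which encodes NKG2D, was higher in NK cells at 530.5, 774, 552 and 637 CPM against 209, 310.1, 231 and 205 (log2 -1.39 ± 0.18, edgeR adjusted p = 0.00048), and a Klrk1 UMI was found in 34.3% of CD8 T cells and 69.05% of NK cells (68.05% and 87.6% before thinning; microglia 3.43%). Klrd1, which encodes the CD94 partner chain, stood at 290.2 to 1051 CPM in CD8 T cells and 619 to 1566 in NK cells (log2 -0.98 ± 0.22, adjusted p = 0.014), a call lost under 5 of 16 alternatives, among them without control library 1 and without Rbpj-deleted library 2. Klrc1, the inhibitory NKG2A chain, read 353, 994, 271 and 364 CPM in CD8 T cells and 263, 516, 242 and 408 in NK cells and was not called (log2 0.34 ± 0.21, adjusted p = 0.36). Klrc2 differed by log2 -0.11 ± 0.23 (adjusted p = 0.82). Of the stretches of Klrc1, 53.1% recur in other genes. Over the lists, 8 of 13 tested activating receptors and adaptors and 3 of 6 inhibitory receptors were higher in NK cells and 0 in CD8 T cells. Their medians were log2 -2.54 and -1.24. The shares over all genes tested were 6.34% higher in NK cells and 5.07% in CD8 T cells. Both lists belong to the lineage the gate selects, so their direction follows in part from the rule. Without control library 1, 5 of 11 and 1 of 4 were called. Both medians are the same with Klrb1a, Sh2d1b1 and Klra9 placed at their lower bounds.

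Fcer1g and Tyrobp, which encode signalling adaptors of NK receptors, were abundant in NK cells. Fcer1g, the Fc receptor gamma chain (ENSMUSG00000058715, chr1:171229572-171234365), stood at 105, 132, 40.2 and 186 CPM in CD8 T cells and 2295, 2804, 2838 and 3649 in NK cells (log2 -4.63 ± 0.25, edgeR adjusted p = 6.4e-06). Tyrobp, which encodes DAP12 (ENSMUSG00000030579, chr7:30413760-30417585), stood at 112, 11.3, 50.2 and 199 CPM against 2414, 2718, 2506 and 2766. Neither gene overlapped between the classes, and the 4 NK values of Tyrobp lay close together while the CD8 T values spread widely. Tyrobp differed by log2 -4.97 ± 0.76 (adjusted p = 0.041), a call lost without control library 1 or Rbpj-deleted library 1, with no filter on low counts and at a higher gate. Microglia express both genes (2594 to 4069 CPM of Tyrobp). The microglial gene C1qb, at 9995 to 10820 CPM in microglia, stood at 79.4, 51.6, 399.8 and 145 CPM in the NK cells and 218, 71.8, 161 and 232 in the CD8 T cells; the part of microglial RNA in these levels was not tested. Hcst, which encodes DAP10, the adaptor of NKG2D, was not called (log2 -0.59 ± 0.20, adjusted p = 0.086), except under 5 alternatives, among them without control library 2. Syk, the kinase recruited by DAP12 and the gamma chain, was higher in NK cells (log2 -2.54 ± 0.55, adjusted p = 0.011, lost without Rbpj-deleted library 2).

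Lineage transcription factors were called in both directions. Of 14 tested, 3 were higher in CD8 T cells, 5 in NK cells and 6 were not called (1 and 2 of 12 called without control library 1). Over all genes tested 5.07% were higher in CD8 T cells and 6.34% in NK cells. Bcl11b, which holds T cell identity (ENSMUSG00000048251, chr12:107910403-108003602), stood at 175, 253, 161 and 165 CPM in CD8 T cells and 28.9, 0, 22.5 and 27.9 in NK cells (log2 2.87 ± 0.37, edgeR adjusted p = 0.00044). Eomes, a T-box factor of mature NK cells and of some CD8 T cells (ENSMUSG00000032446, chr9:118478212-118486132), ran the opposite way at 28.3, 15.1, 30.1 and 18.3 CPM against 220.1, 189, 203 and 129 (log2 -2.99 ± 0.29, adjusted p = 5.8e-05). Neither factor overlapped between classes in any library. Its relative Tbx21 (T-bet) was higher in NK cells by a smaller step (log2 -1.20 ± 0.26, adjusted p = 0.011, lost without control library 1 or Rbpj-deleted library 2). Irf8 (log2 -2.77 ± 0.40), Satb1 (-2.31 ± 0.33) and Klf2 (-2.41 ± 0.25) were likewise higher in NK cells, and Batf was higher in CD8 T cells (log2 0.97 ± 0.29, adjusted p = 0.049). The call of Satb1 was lost without control library 1 and that of Batf without each of the 4 libraries in turn. Runx3, Id2, Ets1, Gata3, Nfil3 and Ikzf3 were not called, though Nfil3 passed without control library 2.

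Genes of homing and tissue entry were higher in NK cells where they differed. Of 15 tested chemokine receptor, integrin and egress genes 6 were higher in NK cells and 0 in CD8 T cells (3 and 0 without control library 1). The median was log2 -0.59, and over all genes tested 6.34% were higher in NK cells and 5.07% in CD8 T cells. Klf2, a factor known to drive the egress receptor S1pr1, read 79.4 to 251 CPM in CD8 T cells and 445 to 1140 in NK cells (adjusted p = 8.1e-05). S1pr1 itself, with 42 UMIs in CD8 T cells and 15 in NK cells, was below the filter.

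Itga2, the CD49b integrin that marks mouse NK cells, stood at 129.9, 86.02, 95.7 and 72.6 CPM in NK cells and 4.57, 3.78, 0 and 12.2 in CD8 T cells (log2 -4.11 ± 0.49, edgeR adjusted p = 0.00027). Itga1, the CD49a integrin of tissue-resident cells and innate lymphoid cells type 1, overlapped between the classes (50.3 to 155 and 21.7 to 206 CPM; log2 0.17 ± 0.31). Its sign turned without control library 1, at the higher gate and with CD8 T cells of fewer than 2 NK receptor UMIs. Ccr2 (-2.88 ± 0.35) and Cxcr4 (-2.35 ± 0.37) were higher in NK cells on the log2 scale, the latter not without control library 1. Ccr2 belongs also to the monocyte list, whose other tested members were Ly6c2 (higher in CD8 T cells, log2 1.14 ± 0.27), Plac8 and Lyz2 (not called; Plac8 was called higher in CD8 T cells, at log2 1.03, without the mixed barcodes). The call of Ly6c2 was lost under 8 of 16 alternatives, among them without control library 1, without control library 2 and with CD8 T cells at any NK receptor count (edgeR adjusted p = 0.26). Among cytokine receptors, Il2rb, the beta chain shared by the interleukin-2 and interleukin-15 receptors, stood at 465, 533, 462 and 327 CPM in CD8 T cells and 938, 1566, 1042 and 1011 in NK cells, without overlap (log2 -1.34 ± 0.17, adjusted p = 0.00048). Ifngr1 was higher in NK cells (log2 -1.66 ± 0.25) and Il21r in CD8 T cells (log2 1.67 ± 0.37, adjusted p = 0.013, lost without control library 1 or Rbpj-deleted library 2). The 7 listed genes of innate lymphoid cells type 1, Itga1 among them, summed to 489, 336, 785 and 367 CPM in NK cells. In CD8 T cells they summed to 231, 297, 284 and 206. The medians over cells were 0, 284, 292 and 279 CPM in NK cells and 167, 323, 262 and 234 in CD8 T cells. Whether the NK class holds such innate lymphoid cells was not tested. The other tested genes of innate lymphoid cells type 1 gave no single direction. Tmem176b was higher in NK cells (log2 -2.43 ± 0.56), a call lost without control library 2 or Rbpj-deleted library 2, and below the filter without control library 1, and Tnfsf10 was not called (log2 -0.01 ± 0.35, its sign turning under 5 alternatives).

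Granule and death-ligand genes were seldom called. Of 15 tested, 1 was higher in CD8 T cells and 2 in NK cells, with a median of log2 -0.18 (1 and 4 without the mixed barcodes or without Rbpj-deleted library 1). Over all genes tested 5.07% were higher in CD8 T cells and 6.34% in NK cells, so counts of 1 and 2 stand little above that share. Nkg7, a granule membrane protein of cytotoxic lymphocytes, stood at 3003, 3789, 3564 and 3156 CPM in CD8 T cells and 2591, 3183, 1897 and 3783 in NK cells (log2 0.27 ± 0.16, edgeR adjusted p = 0.33). A Nkg7 UMI was found in 94.6% of CD8 T cells and 94.4% of NK cells (97.04% and 97.1% before thinning), against 0.901% of microglia. Gzmb (696 to 3758 and 321 to 1910 CPM) overlapped between the classes (log2 1.06 ± 0.69, adjusted p = 0.45). Prf1, which encodes the pore former perforin, was higher in NK cells in 4 of 4 libraries (891, 791, 383 and 1129 CPM against 592, 276, 251 and 156) but missed the threshold (log2 -1.39 ± 0.41, adjusted p = 0.082), which it passed without Rbpj-deleted library 1 and under 4 other alternatives. A p above the threshold does not show that these levels were equal. The 2 genes higher in NK cells encode inhibitors of granule proteases: Serpinb9 read 696, 344, 355 and 324 CPM against 167, 102, 70.3 and 54.99 and Serpinb6b 1155, 430.1, 422 and 419 against 302, 41.6, 60.2 and 61.1 (log2 -2.15 ± 0.21 and -2.58 ± 0.25, adjusted p = 6.4e-05 and 5.8e-05).

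The neighbouring granzyme genes Gzmk and Gzma on chromosome 13 had differences of opposite sign. Gzmk, a tryptase-like granzyme of memory-type CD8 T cells (ENSMUSG00000042385, chr13:113171608-113225908), read 124, 257, 301 and 385 CPM in CD8 T cells and 14.4, 0, 5.63 and 39.1 in NK cells, 360 UMIs against 12 (log2 3.83 ± 0.40, edgeR adjusted p = 7.8e-05). Gzma, the other tryptase (ENSMUSG00000023132, chr13:113093825-113100981), read 83.2, 60.5, 1295 and 1695 CPM in CD8 T cells and 7762, 8051, 5343 and 9667 in NK cells. Every NK library was above every CD8 T library for Gzma, yet the CD8 T levels split by tumour group and the difference of the classes was not called (log2 -4.38 ± 1.498, adjusted p = 0.21). The windows before both RefSeq starts are shown for this contrast; that of Gzmk lies inside the longer gene of the GENCODE annotation. In Gzma the capitals mark 1 match to TGTGGT, on the reverse strand, 50 bases before the start. In Gzmk they mark 1 match each to CTTTGA and GGTGTG.
Gzma chr13:113100982-113101231(-), GRCm38.p6: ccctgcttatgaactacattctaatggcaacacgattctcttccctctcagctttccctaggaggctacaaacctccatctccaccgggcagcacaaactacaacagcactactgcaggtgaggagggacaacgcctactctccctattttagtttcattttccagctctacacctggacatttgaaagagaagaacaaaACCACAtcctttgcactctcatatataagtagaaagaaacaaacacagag
Gzmk chr13:113180966-113181215(-), GRCm38.p6: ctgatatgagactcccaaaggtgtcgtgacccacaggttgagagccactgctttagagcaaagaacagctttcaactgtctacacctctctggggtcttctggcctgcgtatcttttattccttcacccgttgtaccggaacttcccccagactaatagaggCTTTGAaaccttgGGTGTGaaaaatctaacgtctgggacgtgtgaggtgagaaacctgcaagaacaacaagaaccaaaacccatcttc

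Whether the difference between the classes depends on the tumour genotype was asked with an interaction term. Of 3471 genes 1 was called (0.0288%), Gzma, with 96 genes at an unadjusted p under 0.05; limma-voom also called 1. In control tumours CD8 T cells held 83.2 and 60.5 CPM of Gzma and NK cells 7762 and 8051. In Rbpj-deleted tumours CD8 T cells held 1295 and 1695 CPM and NK cells 5343 and 9667. The CD8 T levels of the tumour groups did not overlap and the NK levels did. The log2 ratio of CD8 T to NK was higher in Rbpj-deleted tumours by 4.47 ± 0.28 (SE, edgeR adjusted p = 5.0e-05, 2 residual degrees of freedom). After thinning, a Gzma UMI was found in 8.43% and 3.45% of CD8 T cells of the control libraries and in 30.8% and 41.5% of those of the Rbpj-deleted libraries. In NK cells it was found in 79.2%, 87.5%, 70.97% and 79.5%, and in 0.643% of microglia. Before thinning the shares over all libraries were 20.7% and 82.5%.

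**Figure D4:**
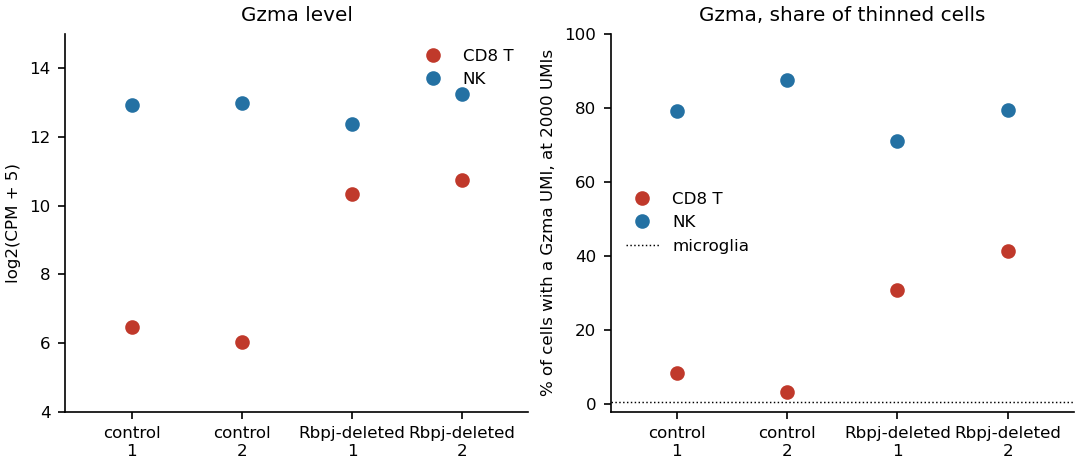
Gzma in CD8 T (red) and NK cells (blue) of the 4 tumour libraries. Left, level as log2 of CPM plus 5; right, percentage of cells with a Gzma UMI after thinning to 2000 UMIs, with the microglial share (0.643%) dotted. The CD8 T points of the 2 control libraries lie below those of the 2 Rbpj-deleted libraries in both panels, and the NK points do not separate.

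The Rbpj-deleted CD8 T cells were shallower, and the limit of 0 NK receptor UMIs was the same at every depth. With CD8 T cells at any number of NK receptor UMIs, the difference was log2 4.98 ± 0.41 (edgeR adjusted p = 0.016), and Gzma stood at 71.2, 27.7, 1162 and 1799 CPM (without TMM scaling). Without the mixed barcodes it was 4.33 ± 0.27 (adjusted p = 6.0e-08). With cells thinned to 2000 UMIs it was 3.49 ± 0.58 with an unadjusted p of 0.0020, and the call was lost (adjusted p = 0.33). Leaving out 1 library at a time gave log2 4.24 to 4.74, with adjusted p of 0.027 or less. Each of those fits leaves 1 tumour group with 1 library, which is assumed to vary like the other group. No label gives a batch, and its part in this difference was not tested. Jag1, a ligand of the Notch receptors, was higher in NK cells than in CD8 T cells (61.3, 51.6, 50.7 and 50.3 CPM, 38 UMIs, against 2 UMIs; pooled ratio 49.4 (95% interval 12.8 to 423), edgeR adjusted p = 0.00061). In the same comparison of the classes, Rbpj itself was called higher in CD8 T cells and the receptor gene Notch2 higher in NK cells. A difference by tumour genotype was called for none of these genes.

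Of 7 cytokine and chemokine genes tested, 0 were higher in CD8 T cells and 1 in NK cells, with a median of log2 0.72. The shares over all genes tested were 5.07% and 6.34%. Without Rbpj-deleted library 2 the counts were 3 and 0, and without control library 1 both were 0. Ifng, the interferon of both classes, read 694, 1289, 1877 and 602 CPM in CD8 T cells and 129.9, 430.1, 338 and 576 in NK cells, so that the classes did not overlap, and missed the threshold (log2 1.63 ± 0.47, edgeR adjusted p = 0.097), which it passed without Rbpj-deleted library 2 and under 5 other alternatives. Ccl5, among the most abundant RNAs of both classes, ranged over 5701 to 17534 and 6323 to 15122 CPM (log2 -0.30 ± 0.21, adjusted p = 0.44). Its sign turned with thinned cells. Ccl3, Ccl4 and Xcl1 also overlapped, with log2 differences of 0.84 ± 0.89, 0.94 ± 0.94 and -0.72 ± 0.95. Ccl3 and Ccl4 were called without Rbpj-deleted library 2 and Xcl1 without Rbpj-deleted library 1. The 1 gene called, Ltb, which encodes lymphotoxin beta, was higher in NK cells in 4 of 4 libraries by a small step (1332, 2047, 1644 and 2386 CPM against 1020, 1441, 1145 and 1421; log2 -0.54 ± 0.13, adjusted p = 0.02), a call lost under 7 of 16 alternatives.

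The cell cycle genes that were called were higher in CD8 T cells. Of 19 tested, 10 were higher there and 0 in NK cells (5.07% and 6.34% over all genes tested). All 19 had a positive difference, and the median was log2 1.47. The count was 3 without control library 1, 6 without Rbpj-deleted library 2 and 15 without Rbpj-deleted library 1. The replication helicase genes Mcm2, Mcm3, Mcm5, Mcm6 and Mcm7 were all called (log2 1.30 to 1.55). Mcm6 read 156, 204, 432 and 284 CPM in CD8 T cells and 79.4, 51.6, 141 and 94.99 in NK cells (edgeR adjusted p = 0.0021), and Rrm1, a subunit of ribonucleotide reductase, 132, 125, 161 and 165 against 46.9, 17.2, 16.9 and 44.7 (adjusted p = 0.0026). The mitotic genes Ccnb2 and Birc5 differed by log2 2.33 ± 0.44 and 2.29 ± 0.54. Without control library 1 the calls of Mcm2, Mcm3, Mcm5, Ccnb2 and Birc5 were lost, those of Mcm2 and Birc5 also without Rbpj-deleted library 2, and that of Birc5 also without the mixed barcodes. Mki67 (log2 1.23 ± 0.999, adjusted p = 0.55) and Top2a were not called. A Mki67 UMI was found in 21.1% of CD8 T cells and 5.56% of NK cells (40.8% and 9.49% before thinning), beside 6.99% of microglia. By library the NK share was 6.25%, 0%, 6.45% and 5.13% and that of microglia 3.53%, 2%, 4.04% and 14.1%, and no cycling was read from these shares.

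The remaining lists showed single genes and no common direction. Their counts are to be read beside the shares over all genes tested, 5.07% higher in CD8 T cells and 6.34% higher in NK cells. Of 12 interferon-response genes 0 were higher in CD8 T cells and 2 in NK cells, the feedback inhibitor Socs3 (log2 -1.89 ± 0.29, edgeR adjusted p = 0.0016) and Irf1 (log2 -1.10 ± 0.32, adjusted p = 0.045). The call of Irf1 was lost under 8 of 14 alternatives, among them without each of the 4 libraries in turn. Ifi27l2a read 1345, 5075, 1697 and 984 CPM in CD8 T cells and 50.5, 138, 597 and 151 in NK cells without overlap, but missed the threshold (log2 3.35, adjusted p = 0.12). Without the mixed barcodes it was called (log2 4.54, adjusted p = 9.3e-05), as it was without Rbpj-deleted library 1, with DESeq2 and with thinned cells. Of 13 cytoskeleton and adhesion genes the tetraspanin Cd9 (log2 -2.81 ± 0.35) and the scaffold Ahnak (-1.25 ± 0.31) were higher in NK cells and 0 in CD8 T cells. The counts were 3 and 2 without the mixed barcodes or without Rbpj-deleted library 1 and 1 and 2 without Rbpj-deleted library 2, and the call of Ahnak was lost without control library 1 or either Rbpj-deleted library. Of 9 innate signalling enzymes 0 were called by edgeR, and 2 were higher in NK cells without control library 2. Further genes of the largest differences were Gstp3, a glutathione transferase (74.95, 109.7, 80.3 and 82.5 CPM against 3.61, 0, 0 and 11.2), and the metalloprotease Adam19 (56.7, 125, 100.4 and 70.3 against 0, 17.2, 16.9 and 0) in CD8 T cells. In NK cells they were the sulfatase Sulf2 (97.4, 103, 163 and 106 CPM, 81 UMIs against 3), the coactivator Cited4 (50.5, 361, 95.7 and 184 CPM, 85 UMIs against 1; pooled ratio 221 (95% interval 38.6 to 8839)) and the sodium pump subunit Atp1b1 (141, 138, 124 and 134 CPM, 93 UMIs against 8).

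**Figure D5:**
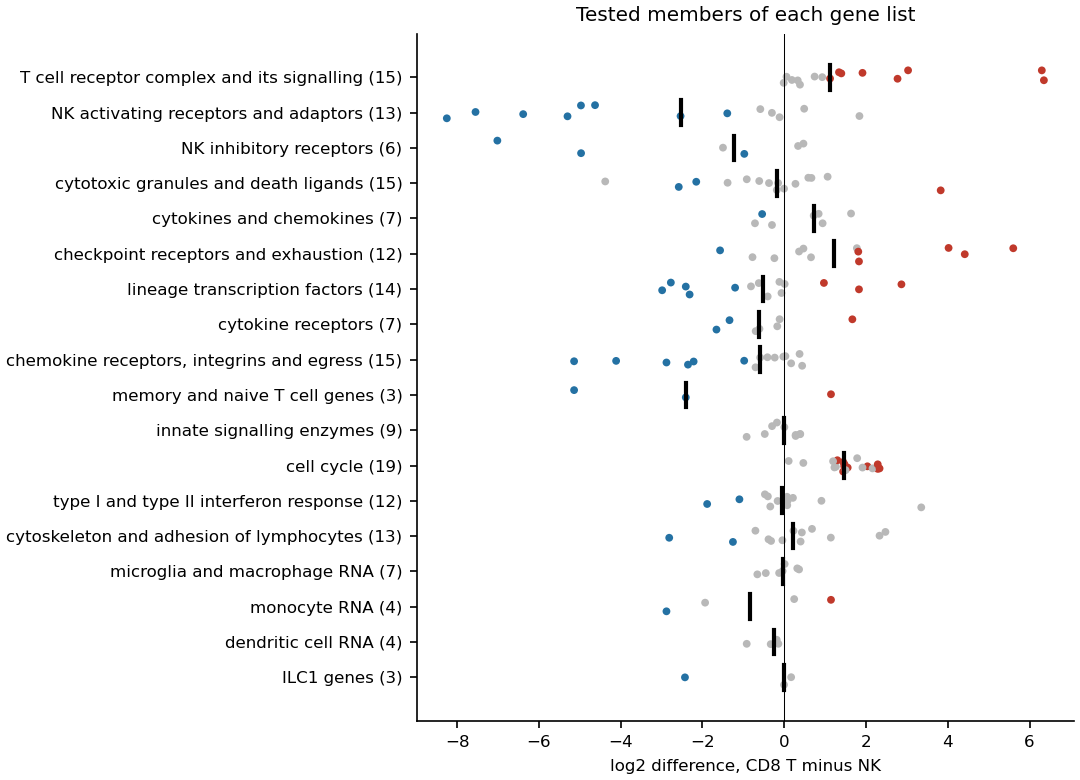
Log2 difference (CD8 T minus NK) of each tested gene, by list, with the number tested in parentheses and the median as a black bar; red and blue points were called higher in CD8 T and in NK cells, grey ones were not called. T cell receptor, checkpoint and cell cycle genes lie to the right (medians 1.12, 1.21 and 1.47) and NK receptor genes to the left, while granule genes centre near 0 (median -0.18).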

How the data were processed

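The authors' deposited table holds 1 whole-number count per gene and barcode for 6 libraries, read here as UMI counts; per the submitters' processing notes kallisto 0.46.0, bustools 0.39.3 and mm10 were used, with no role given. Every barcode had at least 1000 counts, so low barcodes had been removed before deposit. Of 27378 gene IDs 27359 had a symbol in GENCODE vM21 (GRCm38).

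A barcode was used if it held 500 genes or more and no more than 10% of its counts were mitochondrial, and barcodes whose sequence had over 10 times the counts in another library were removed as index-hopped copies (2 of the gated barcodes; 1 gated barcode still shared its sequence with another library). No doublet caller was run; the gates limit the other class's genes and myeloid genes. Each class of each library gave 1 sum of counts. After filterByExpr and TMM scaling, robust quasi-likelihood fits of edgeR 4.0.16 had library and class as terms (3 residual degrees of freedom), with Benjamini-Hochberg adjustment over all genes tested and a threshold of 0.05. Levels are CPM from TMM-scaled totals, and sums over lists use unscaled totals. An interaction term tested the class difference by tumour genotype. DESeq2 1.42.0 and limma 3.58.1 were alternatives. The pairing of the classes comes from their shared library; their deviations from the class means correlated at 0.206, 0.162, 0.014 and 0.365 in the 4 libraries.

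The members, the 22 gene lists and the tests were chosen with earlier results of these data known. Named genes were up to 12 of the largest differences in each direction (called, 50 CPM or more in the class where they were higher, same direction in 4 libraries; predicted, ribosomal, mitochondrial, receptor segment and sex-linked genes left out), up to 4 of smallest p per list, and genes of the genotype difference. Gzma, Gzmb, Prf1, Nkg7, Xcl1, Ccl3, Ccl4, Ctla4, Ifi27l2a, Hcst, Klrc1, Cd160 and further list members given by name were added after their values were seen. Promoter windows are from RefSeq (GRCm38.p6), for 4 genes chosen after their values were seen; 31-base stretches shared with other genes were counted in the GENCODE vM21 transcripts. Healthy brain libraries (7 CD8 T and 19 NK cells) entered no test. Some list members with values are not reported here.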

Additional observations from a re-analysis of the deposited data

Results flagged for a closer look

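Within the 4 libraries of a class, 7 genes had a library whose gap to the nearest of the others exceeded Dixon's 95% limit. Gaps were taken on the log2 scale. Only named genes called between the classes were screened, and only where each library of that class had at least 3 UMIs. That minimum was set after the values had been seen. Chance flags about 1 in 20 such groups. The number of groups screened is not given here, so the 7 flags cannot be weighed against that rate. Cd6 stood at 238.3 CPM in the CD8 T cells of Rbpj-deleted library 2, above the 106 to 120.5 of the others. Sulf2 stood at 163.3 CPM in the NK cells of Rbpj-deleted library 1, above 97.4 to 106. In the NK cells of control library 1, Jag1 (61.35 CPM), Serpinb6b (1155 CPM) and Serpinb9 (696.4 CPM) were above the other NK libraries, which held 50.3 to 51.6, 419 to 430.1 and 324 to 355 CPM. In the NK cells of control library 2, which number 8, Batf stood at 86.02 CPM, above 65.0 to 67.6, and Syk at 51.61 CPM, below 72.2 to 73.2.

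The log2 ratio of CD8 T to NK for Gzma was higher in Rbpj-deleted than in control tumours by 4.469 (edgeR interaction term, adjusted p = 5.0e-05), the 1 called difference between tumour groups among 3471 genes.

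The same gates found cells in healthy brain, which entered no comparison. Healthy library 2 held 4 CD8 T cells and 16 NK cells among 2580 barcodes, and healthy library 1 held 3 of each among 7181.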

How the results depend on the processing

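The 396 genes called between the classes became 245 with DESeq2, 749 with no filter on low counts, 138 with a myeloid limit of 0, 108 with cells thinned to 2000 UMIs (1139 genes tested) and 689 with CD8 T cells at any NK receptor count. The settings at any NK receptor count, without mixed barcodes and with the block by label number, and every alternative for the genotype difference beyond limma-voom and library size scaling, were chosen after seeing the data. With no filter 55.3% of the calls were higher in CD8 T cells, beside 44.4%, and the median of all genes moved from log2 0.02 to 0.12. Leaving out 1 library at a time gave 98 to 376 calls, fewest without control library 1 and 199 without Rbpj-deleted library 2. Of the 396 genes, 230 were called by DESeq2, 89 without control library 1 (340 of them tested there) and 365 without the mixed barcodes (380 tested). No replicate block gave 240 calls. A replicate block by label number, pairing libraries of different tumours that share only a number (correlations of -0.079 in CD8 T and 0.057 in NK cells), gave 266. Calls by tumour genotype numbered 1 to 12 with 1 library left out (12 without either Rbpj-deleted library; the lone library of a group is assumed to vary like the other group), 4 with CD8 T cells at any NK receptor count and 2, without Gzma, with thinned cells. CD8 T cells numbered 111 with a myeloid limit of 0, 210 with fewer than 2 NK receptor UMIs and 306 at any count; NK cells numbered 98 at the higher gate and 99 with a myeloid limit of 0. The log2 differences that changed sign belonged to genes not called with all libraries, and the cause was not tested; without Rbpj-deleted library 1, however, H2-Aa, H2-Ab1 and Cd74 were called higher in CD8 T cells. Ccl5 turned to 0.33 and Cd74 to 0.16 with thinned cells. C1qc turned to -0.0134 with no replicate block, -0.31 with a myeloid limit of 0 and -0.25 without mixed barcodes; C1qb to -0.0301, -0.0552 and -0.25 in the same settings. H2-Eb1 turned to 0.34, H2-Aa to 0.0940 and H2-Ab1 to 0.35 with DESeq2, and H2-Eb1 to 0.35 with the replicate block by label number. With no filter Cd2 turned to 0.1051, Ets1 to 0.0628, Klrc2 to 0.0193 and Gata3 to 0.0049; Cd2 turned to 0.0285 with DESeq2, Ets1 to 0.1225 with thinned cells and Ikzf3 to -0.0111 with a myeloid limit of 0. Itga1 turned to -0.0888 at the higher gate and -0.0076 with fewer than 2 NK receptor UMIs. Tnfsf10 turned to 0.0028 with library size scaling, 0.11 with no filter and 0.11 at any NK receptor count. With 1 library left out, C1qb ranged from -0.15 to 0.99, H2-Aa from -1.50 to 1.25, H2-Ab1 from -1.20 to 1.18, Cd74 from -1.11 to 1.14, Itga1 from -0.12 to 0.36, Cd2 from -0.3609 to 0.2528, Ets1 from -0.2736 to 0.1002, Ikzf3 from -0.1457 to 0.1863 and Tnfsf10 from -0.20 to 0.0729. Sums of 59530 UMIs (8 NK cells, control library 2) and 95004 UMIs (14 CD8 T cells, Rbpj-deleted library 1) limit the precision of low genes in those libraries.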

Other observations

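Some genes below the filter had nearly all of their UMIs in 1 class; they were picked after their counts were seen and were not tested. Tnfrsf4, which encodes the costimulatory receptor OX40, had 169 UMIs in CD8 T cells and 1 in NK cells. Over the CD8 T libraries it stood at 125, 18.9, 20.1 and 76.4 CPM, and the 1 NK UMI made 17.2 CPM in control 2. Il2ra, the alpha chain of the interleukin-2 receptor, had 82 and 2 UMIs, at 26.5, 15.1, 10.04 and 147 CPM over the CD8 T libraries. The chemokine gene Ccl1 had 183 and 1, at 72.2, 0, 0 and 318 CPM over the CD8 T libraries in the order control 1, control 2, Rbpj-deleted 1 and Rbpj-deleted 2, so its RNA came from 2 libraries. Themis, a signalling protein of T cells, had 58 UMIs against 0. On the NK side Serpinb9b, a relative of the protease inhibitor Serpinb9, had 53 UMIs against 1, and Clnk, an adaptor of immunoreceptor signalling, had 47 against 3. The CD8 T and NK sums hold 1792905 and 688927 UMIs.

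Cxcr6, a chemokine receptor of tissue-resident CD8 T cells, had 7 UMIs over all 17362 barcodes of the table and 0 in both classes. In the GENCODE annotation the gene (chr9:123806475-123811760, forward strand) lies within the span of Fyco1 (chr9:123789500-123851899, reverse strand), which had 2872 UMIs. Whether the overlap bears on the count of Cxcr6 was not tested.

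Tcf7, a factor of stem-like CD8 T cells, had 14 UMIs in CD8 T cells and 24 in NK cells.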
